A study of Caenorhabditis elegans with 6 samples.

Results

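A set of 33 *C. elegans* genes that encode subunits of the proteasome was examined, out of 46778 gene identifiers in the count files. They were chosen by name, as every gene whose WormBase symbol is *pas*, *pbs*, *rpn* or *rpt* followed by a number and which had 10 or more reads in at least 3 of the 6 libraries. All 33 genes with such a symbol met the minimum of reads. The core particle accounts for 14 of them and the regulatory particle for 19. The small lid component gene *dss-1* falls outside this naming rule and is given below with genes for associated proteins. RNA came from whole young adult animals of 2 genotypes, wild type and *vhl-1* mutants, with 3 biological replicates of each and no further treatment. The mutants used in the study carry *vhl-1(ok161)*, a null allele of the gene for the worm VHL protein, so that the mutant group stands on a single allele. The libraries mix all tissues, the germ line included, and in such bulk samples fewer cells of a type and less RNA per cell cannot be told apart.

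The proteasome is the protease complex that degrades proteins marked with ubiquitin. Its core particle is a barrel of stacked rings. The outer rings are built of alpha subunits (*pas* genes), which gate the entrance, and the inner rings of beta subunits (*pbs* genes), some of which carry the proteolytic sites inside the barrel. The regulatory particle caps the barrel. Its base holds a ring of ATPases (*rpt* genes) that unfold the substrate, together with scaffold subunits and ubiquitin receptors, and its lid (the remaining *rpn* genes) removes the ubiquitin chain. In the pathway under study, VHL-1 is the substrate receptor of a ubiquitin ligase that hands the transcription factor HIF-1 to the proteasome, and loss of *vhl-1* stabilizes HIF-1. The comparison asked whether the RNA of the degrading machine itself differs between wild type animals and *vhl-1* mutants.

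The libraries held between 52462303 and 82910026 reads on genes. The 33 genes took between 0.628% and 0.703% of these reads, with 1677 to 32559 reads for a gene in a library. Levels below are CPM, read counts set relative to the total of the library after TMM scaling, which corrects the totals for differences in composition. The targeted gene matched the labels, with 373 to 501 reads in the wild type libraries and 1 to 7 reads in the *vhl-1* libraries. Summed over 5 oocyte genes, the level lay between 409 and 1280 CPM in wild type and between 291 and 1125 CPM in *vhl-1* libraries. Libraries of the same genotype thus ranged widely in oocyte RNA. Of the 33 marker genes in 7 lists (oocyte, sperm, germ line, intestine, muscle, neurons and hypodermis), 0 passed the test. Of all tested genes 0.874% passed as higher and 0.374% as lower, so 0 of 33 says little about tissue content. The oocyte genes had standard errors of the log2 fold change between 0.42 and 0.69, wide enough to miss sizeable differences. All 5 oocyte estimates were below 0 (median -0.14). All 4 neuron and all 4 hypodermis estimates were above 0 (medians 0.23 and 0.48). The p-values of the tests measure the spread between the biological replicates named in the labels.

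None of the 33 proteasome genes passed the test for a difference between the genotypes. With the quasi-likelihood test of edgeR, run over 16596 genes, 0 members passed an adjusted p of 0.05 in the higher direction, where 0.874% of all tested genes did, and 0 passed in the lower direction, against 0.374% of all tested genes. The smallest adjusted p of a member was 0.78, that of *rpn-6.2*. No member had an unadjusted p under 0.05 either, against 9.38% of all tested genes, and 0 passed with DESeq2, against 3.51% of the genes to which that tool gave an adjusted p. The log2 fold changes (*vhl-1* over wild type) lay between -0.14 and -0.0098, with a median of -0.064, and the median of all tested genes was 0.0059. Their standard errors (SE) were between 0.071 and 0.092.

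The intervals of these genes were narrow. Every 95% interval of a log2 fold change included 0, and together the 33 intervals reached from -0.33 (*rpn-6.2*) to 0.18 (*pbs-4*). As folds, the bounds were 0.794 for *rpn-6.2* and 1.13 for *pbs-4*. The median standard error was 0.078 for the members and 0.20 for all tested genes, and the median absolute log2 fold change was 0.064 for the members against 0.14 for all tested genes. Members were among the more abundant RNAs: in wild type animals the median member, with 196.4 CPM, stood above 94.6% of the tested genes. All tested genes, with a median of 11.7 CPM in wild type, were thus not matched to the members in abundance, which limits both comparisons.

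**Figure D1:**
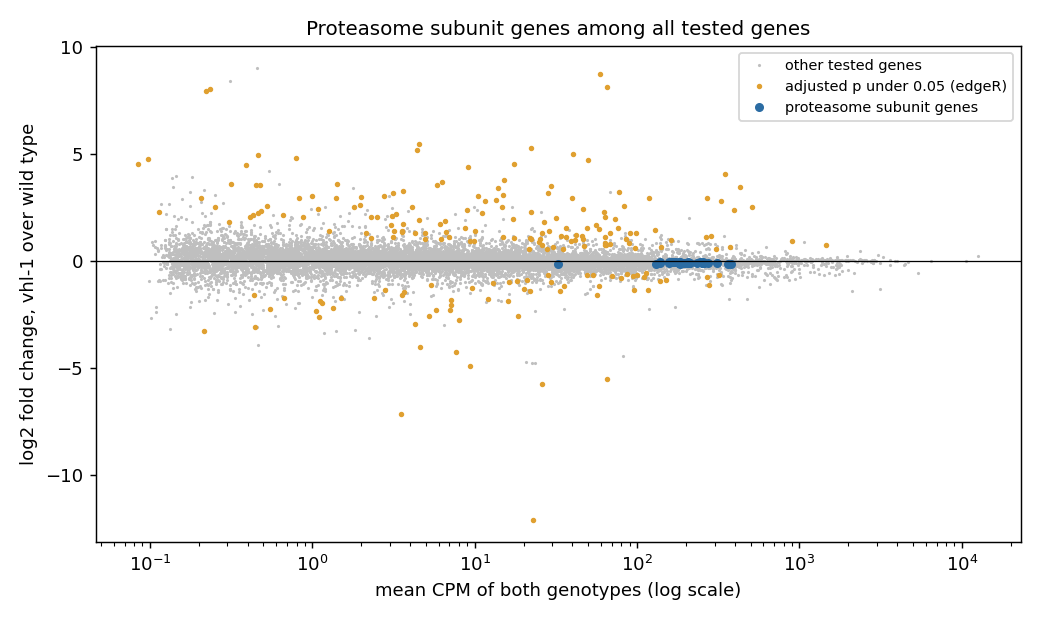
Log2 fold change of *vhl-1* mutants over wild type animals (vertical axis) against the mean CPM of both genotypes on a log scale (horizontal axis), 1 point per tested gene; orange points passed an adjusted p of 0.05 in edgeR and blue points are the 33 proteasome genes. The blue points sit between -0.14 and -0.0098, in a flat band close to 0.

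All 33 estimates were below 0, by small amounts, while that of *dss-1*, a lid component gene outside the naming rule, was 0.027. Since all genes share the same 6 libraries, the common sign of the 33 is not 33 separate observations. Of all tested genes, 51.6% had an estimate above 0. Those genes were not matched to the members in abundance, with a median of 11.7 CPM in wild type against 196.4 CPM. Whether other genes of like abundance share the sign was not tested. With the size factors of DESeq2 in edgeR, 0 of the 33 were above 0 and their median was -0.071. When libraries were scaled by their size alone, 4 of the 33 were above 0 and their median was -0.028, but the median of all tested genes then rose too, from 0.0059 to 0.040, so that the members stayed about as far below it. The size of the shift varied with the libraries used. Without the second *vhl-1* library, 4 members were above 0 and the median was -0.032, and without the first *vhl-1* library it was -0.10 with 0 members above 0. Without the third wild type library 2 members were above 0, and without the third *vhl-1* library 1 was.

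No core particle gene passed the test. The 14 genes had a median log2 fold change of -0.056, with a range from -0.12 (*pas-5*) to -0.0098 (*pas-3*). Their CPM summed to 2692, 2686 and 2828 in the wild type libraries and to 2777, 2529 and 2591 in the *vhl-1* libraries. The sums of the genotypes overlapped. The means of 2736 ± 80.4 and 2632 ± 129 (SD, n = 3 each) differed by less than the SD of the mutants but by more than that of wild type. In no core gene did the libraries of one genotype lie wholly apart from those of the other.

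Among the alpha ring genes, *pas-3* (WBGene00003924, chromosome I from 5105110 to 5106048 in WBcel235) changed least. It had 252, 250 and 260 CPM in the wild type libraries and 263, 244 and 251 CPM in the *vhl-1* libraries. The mutant libraries held both the highest and the lowest of these values. The log2 fold change of *pas-3* was -0.0098 (SE 0.075, 95% interval -0.19 to 0.17). *pas-5* (WBGene00003926, chromosome I from 10566350 to 10567300) had the lowest estimate of the core, with 190, 185 and 198 CPM in wild type and 185, 167 and 174 CPM in *vhl-1* libraries. Only the first *vhl-1* library reached the range of the wild type libraries. Its log2 fold change was -0.12 (SE 0.079, adjusted p = 0.81 in edgeR). The other alpha ring genes, *pas-1*, *pas-2*, *pas-4*, *pas-6* and *pas-7*, had log2 fold changes between -0.066 (*pas-4*) and -0.035 (*pas-7*).

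The genes of the beta subunits with the proteolytic sites also overlapped between the genotypes. *pbs-5*, which encodes the chymotrypsin-like subunit, had 248, 256 and 276 CPM in the wild type libraries and 262, 243 and 237 CPM in the *vhl-1* libraries. The first mutant library exceeded both of the lower wild type libraries. Its log2 fold change was -0.073 (SE 0.086, adjusted p = 0.96 in edgeR). *pbs-2*, the gene of the trypsin-like subunit, had 162, 155 and 162 CPM against 162, 150 and 154 CPM, a log2 fold change of -0.039 (SE 0.075). *pbs-1*, the gene of the caspase-like subunit, had 207, 199 and 220 CPM against 219, 187 and 198 CPM. Its mutant libraries spread over more than the difference of the means, and its log2 fold change was -0.051 with a standard error of 0.092, the widest of the 33. Of the beta genes without a proteolytic site, *pbs-4* was nearest to 0, with 158, 163 and 172 CPM in wild type and 174, 155 and 156 CPM in *vhl-1* libraries (log2 fold change -0.025, SE 0.085). *pbs-3*, *pbs-6* and *pbs-7* had log2 fold changes of -0.053, -0.045 and -0.081.

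**Figure D2:**
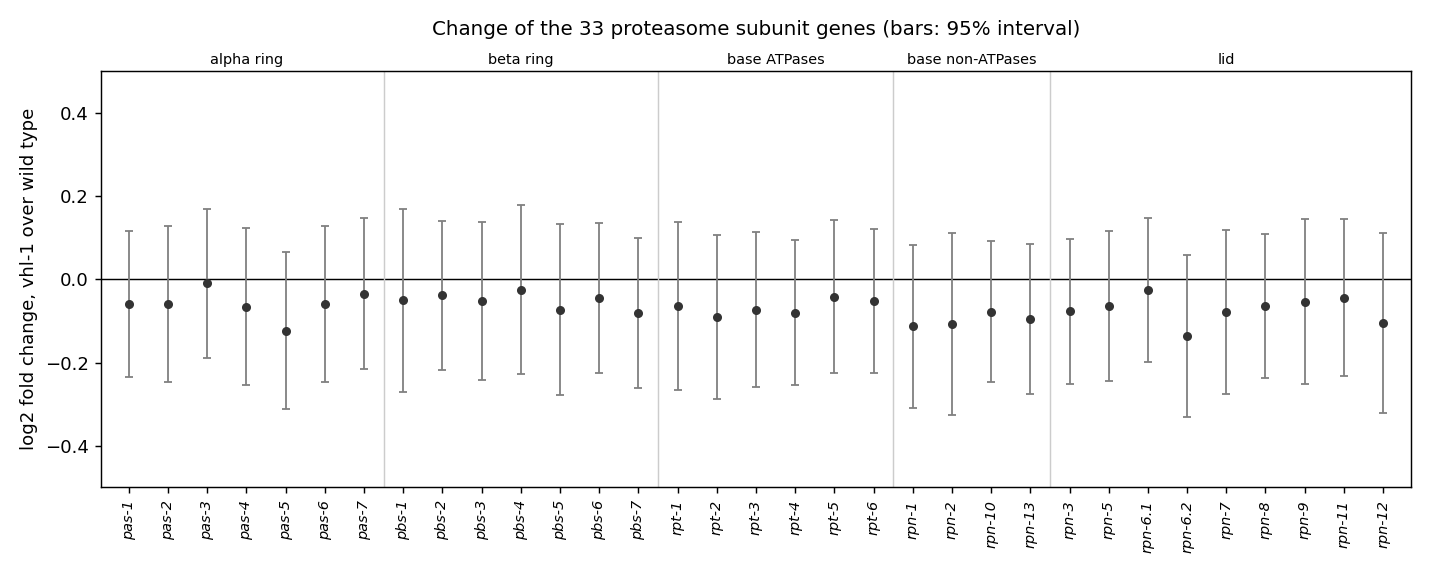
Log2 fold change of *vhl-1* mutants over wild type animals (vertical axis) for each of the 33 proteasome genes (horizontal axis), grouped by ring, base and lid; points are estimates of edgeR and bars their 95% intervals. Every bar crosses 0, the lowest reaching -0.33 at *rpn-6.2* and the highest 0.18 at *pbs-4*.

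No regulatory particle gene passed the test either. The 19 genes had a median log2 fold change of -0.077, with a range from -0.14 (*rpn-6.2*) to -0.026 (*rpn-6.1*). The summed level was 4196, 4162 and 4177 CPM in the wild type libraries and 4135, 3769 and 3985 CPM in the *vhl-1* libraries. Under TMM scaling all 3 mutant sums were below the wild type sums, the nearest by less than the spread of the mutants. The means, 4178 ± 16.9 and 3963 ± 184 (SD, n = 3 each), differed by more than either SD. With libraries scaled by their size alone the sums of the genotypes overlapped, with means of 4128 and 4012 CPM.

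In 6 of the 33 genes, or 18.2%, all 3 *vhl-1* libraries were below all 3 wild type libraries, where 7.48% of all tested genes showed this. They were *rpt-4*, *rpn-3*, *rpn-5*, *rpn-10*, *rpn-13* and *rpn-6.2*, all of the regulatory particle. In 0 genes were they all above, against 6.97% of all tested genes. With libraries scaled by their size alone, an alternative added after the data were seen, the 6 became 0, where 6.24% of all tested genes were lower in all mutant libraries and 8.72% higher. That scaling shifts all genes of a library by the same factor.

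The 6 ATPases of the base, *rpt-1* to *rpt-6*, had log2 fold changes between -0.091 (*rpt-2*) and -0.042 (*rpt-5*), and their lowest adjusted p in edgeR was 0.91. The largest RNAs of the base are those of the scaffold subunits. *rpn-1* (WBGene00004458, chromosome IV from 6906420 to 6909913) encodes 981 amino acids in the Ensembl annotation and had 414, 392 and 380 CPM in wild type and 382, 350 and 365 CPM in *vhl-1* libraries. Its log2 fold change was -0.11 (SE 0.082, adjusted p = 0.86 in edgeR). *rpn-2*, the other large scaffold gene, had 401, 372 and 360 CPM against 374, 327 and 351 CPM and a log2 fold change of -0.11 (SE 0.091, adjusted p = 0.90 in edgeR). For both genes the first wild type library was the highest of the 6, and the first mutant library overlapped the wild type range.

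The ubiquitin receptor genes were among those whose libraries did not overlap under TMM scaling. *rpn-10*, which in *C. elegans* also acts in sex determination through turnover of TRA-2, had 161, 162 and 165 CPM in wild type and 157, 149 and 155 CPM in *vhl-1* libraries. Its log2 fold change was -0.078 (SE 0.071, 95% interval -0.25 to 0.091). *rpn-13* had 144, 142 and 141 CPM against 141, 128 and 131 CPM, with a log2 fold change of -0.095 (SE 0.075, adjusted p = 0.89 in edgeR). In *rpn-13* the first mutant library was within 1 CPM of the lowest wild type library.

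In the lid, *rpn-11* encodes the metalloprotease that removes the ubiquitin chain. It had 170, 172 and 177 CPM in wild type and 179, 162 and 163 CPM in *vhl-1* libraries. The first mutant library was the highest of all 6, and the log2 fold change was -0.044 (SE 0.079, adjusted p = 1.00 in edgeR). *rpn-3*, *rpn-5*, *rpn-7*, *rpn-8*, *rpn-9* and *rpn-12* had log2 fold changes from -0.10 (*rpn-12*) to -0.054 (*rpn-9*).

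The lid has a pair of paralogs in this species. *rpn-6.1* (WBGene00004462, chromosome III from 6959110 to 6962001) encodes a subunit that bridges the lid and the core, and raised *rpn-6.1* has been linked to long life in worms. It had 169.3, 168.6 and 169.0 CPM in the wild type libraries and 171, 159 and 169 CPM in the *vhl-1* libraries. The wild type libraries differed by less than 1 CPM, and only the second mutant library stood below them by more than that. The log2 fold change of *rpn-6.1* was -0.026 (SE 0.072, 95% interval -0.20 to 0.15).

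*rpn-6.2* (WBGene00010309, chromosome III from 8999817 to 9001999) had the lowest level of the 33, with 34.2, 33.9 and 33.7 CPM in wild type and 31.6, 29.6 and 31.3 CPM in *vhl-1* libraries. Its mutant libraries were all below its wild type libraries. The log2 fold change was -0.14 (SE 0.082, adjusted p = 0.78 in edgeR and 0.95 in DESeq2), the lowest estimate of the 33 and still short of the threshold. How multi-mapped reads were treated is not given in the sources used here, and reads of 50 bp shared by both paralogs could have been divided between them or left out.

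The levels of the members were compared per kilobase of exon, so that long and short RNAs could be set side by side. In wild type animals *pas-3* was highest, with 285 ± 6.11 CPM per kb (SD, n = 3), and *rpn-6.2* lowest, with 21.8 ± 0.191 CPM per kb. Without *rpn-6.2* the other 32 genes spanned a ratio of 2.99, down to 95.1 ± 0.984 CPM per kb for *rpn-13*. Core genes were the higher class: their median was 212 CPM per kb against 140 CPM per kb for the regulatory particle, and 12 of the 14 core genes were above the highest regulatory gene, *rpt-2*, at 182 ± 3.92 CPM per kb. The exceptions were *pbs-3* and *pbs-2*, with 166 and 158 CPM per kb.

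**Figure D3:**
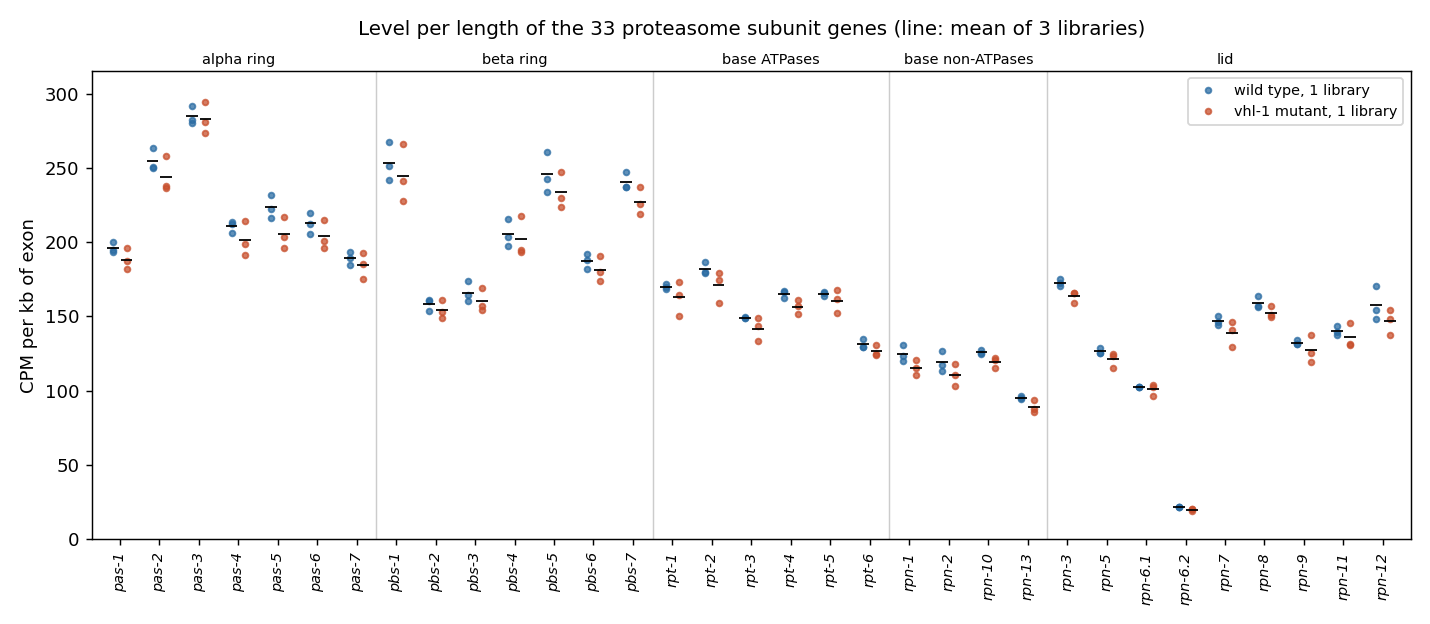
Level in CPM per kb of exon (vertical axis) of each of the 33 proteasome genes (horizontal axis), grouped by ring, base and lid; each point is 1 library, blue for wild type and red for *vhl-1*, and black lines are means of 3 libraries. Core genes lie between 158 and 285 and regulatory genes other than *rpn-6.2* between 95.1 and 182 in the wild type means, and in every gene the mutant mean is slightly lower.

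The classes stepped down from the alpha ring to the base. Medians in wild type animals were 213 CPM per kb for the alpha ring and 206 for the beta ring, then 165 for the ATPases, 140 for the lid and 122 for the other base genes. In *vhl-1* mutants the same medians were 204, 202, 159, 136 and 113 CPM per kb. Of the 32 pairs of neighbors in the wild type order, 22 overlapped in their libraries, so most neighbors in the order did not differ beyond their spread. No gene moved by more than 2 places in the order between the genotypes. The values per kb rest on annotated exon lengths and on libraries whose coverage along the RNA is not known from gene counts. Core genes are also the shorter ones, with 801 to 1059 bp of exon against 855 to 3171 bp, so length and class cannot be told apart.

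The balance of the particles differed by less than the spread between libraries. The ratio of the summed core to the summed regulatory CPM was 0.642, 0.645 and 0.677 in the wild type libraries and 0.672, 0.671 and 0.650 in the *vhl-1* libraries. The third wild type library had the highest ratio and the third mutant library lay with the lower wild type ones. The means were 0.655 ± 0.0195 and 0.664 ± 0.0122 (SD, n = 3 each). This ratio does not depend on how libraries are scaled.

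**Figure D4:**
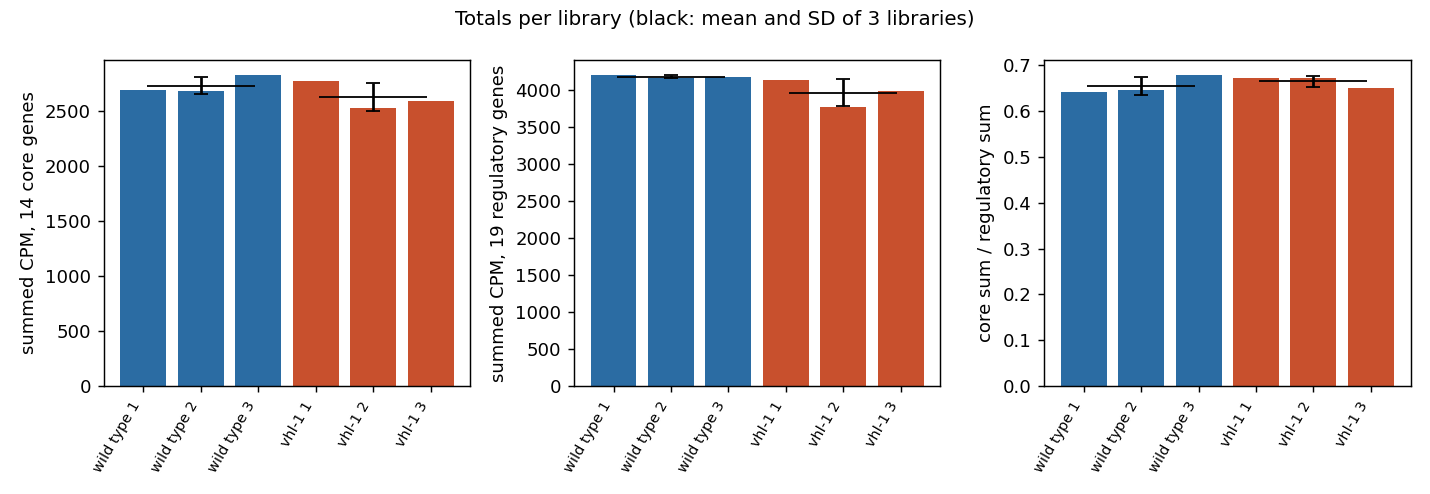
Summed CPM of the 14 core genes (left), summed CPM of the 19 regulatory genes (middle) and the ratio of both sums (right), 1 bar per library, blue for wild type and red for *vhl-1*; black marks are the mean and SD of 3 libraries. The second *vhl-1* library has the lowest bar for both sums, 2529 and 3769 CPM, and the ratios of the genotypes overlap.

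The members moved together from library to library. The second *vhl-1* library was the lowest of the 6 for 31 of the 33 genes, with a median deviation of -0.089 on the log2 scale from the mean of each gene. The first *vhl-1* library, by contrast, was above the mean of the gene for 28 of the 33, with a median deviation of 0.037, close to the wild type libraries at 0.018, 0.019 and 0.057. The third *vhl-1* library had a median deviation of -0.045. The share of all tested genes that were lowest in the second *vhl-1* library was not counted. Outside the set, *ubq-1*, *cul-2* and *csn-3* were lowest there too, while *let-70* was highest there. The second *vhl-1* library also had the lowest sum of oocyte genes, 291 CPM, while the third wild type library had the next lowest, 409 CPM, and was the highest of the 6 for 17 of the 33 proteasome genes. The summed hypodermis genes were highest in the second *vhl-1* library, at 1105 CPM, against 370 to 737 CPM in wild type and 667 and 773 CPM in the other mutant libraries. In that list *rol-6* was instead highest in the third wild type library. The summed neuron genes were also highest in the second *vhl-1* library, at 113 CPM against 73.7 to 85.7 CPM in the other 5 libraries. The summed sperm and germ line genes were lowest there, at 149.8 and 1067 CPM. In the germ line list *pgl-1*, *glh-1* and *him-3* were lowest there, while *glp-1*, *fbf-1* and *fbf-2* were not. The summed intestine genes were highest there as well, at 2202 CPM, of which *act-5* alone held 1521 CPM. Of that list only *act-5* was highest there, and *ges-1*, at 62.7 CPM, was lowest there. The summed muscle genes, at 7565 CPM, lay within the wild type range. The part of these tissues in the deviations was not tested.

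**Figure D5:**
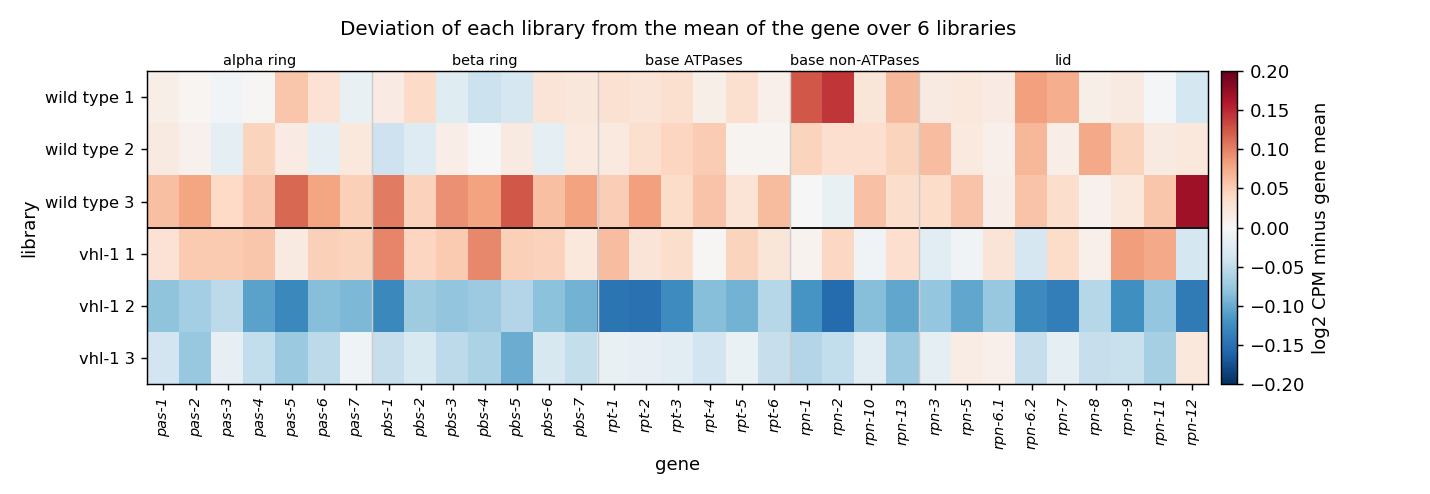
Log2 CPM of each library (rows) minus the mean of the gene over 6 libraries, for the 33 proteasome genes (columns, grouped by ring, base and lid); red is above and blue below the mean of the gene. The row of the second *vhl-1* library is blue throughout, with a median of -0.089, and the row of the first *vhl-1* library is mostly red, with a median of 0.037.

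Replicates of a genotype were close. The coefficient of variation of CPM was under 10% for all 33 genes in both genotypes. Its median was 2.15% in wild type and 4.85% in *vhl-1* libraries, where all tested genes had medians of 14.9% and 15.4%. Those genes were not matched in abundance: their median level in wild type was 11.7 CPM, against 196.4 CPM for the members. The coefficient of variation was larger in the mutants for 29 of the 33 genes. The widest in wild type was that of *rpn-12*, at 7.44%, named here after its values were seen: it had 127, 132 and 146 CPM in wild type and 127, 118 and 132 CPM in *vhl-1* libraries, so the third wild type library stood apart. The closest was that of *rpn-6.1*, at 0.195%.

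Beyond level, the members share their place on the autosomes. By the Ensembl annotation, 10 lie on chromosome I, 7 on II, 8 on III, 3 on IV and 5 on V. None lies on X, which holds 14.1% of the tested genes. Their proteins have 202 to 284 amino acids in the core and 250 to 981 in the regulatory particle. In 10 of the 33, exons overlap those of a gene on the opposite strand, at most by 394 bp (*rpn-7* with *nemt-1*, 20.7% of its exonic bases). The strand setting of the counting is not given in the sources used here, so reads in such overlaps could have come from either gene. In *pbs-7*, 70 bp of exon overlap *K07A12.5* on the same strand, where no strand setting separates the genes.

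Genes that work beside the proteasome were listed in groups. Of 9 genes for associated proteins, 0 passed the edgeR test in either direction, with a median log2 fold change of -0.080. They include *dss-1*, a small lid component (0.027), the deubiquitinase genes *ubh-4* (-0.080) and *usp-14* (-0.14), the shuttle genes *rad-23* (-0.047) and *ubql-1* (-0.046), and *psme-3*, which encodes an alternative cap of the core. *psme-3* had 85.7, 75.8 and 73.7 CPM in wild type and 70.6, 70.8 and 69.2 CPM in *vhl-1* libraries. Its log2 fold change of -0.16 (SE 0.086) did not pass the edgeR test (adjusted p = 0.72). In *psme-3* and *ubh-4* all 3 mutant libraries were below the wild type libraries, as in 7.48% of all tested genes.

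Among 9 genes listed as regulators of proteasome genes, 0 passed in either direction, with a median log2 fold change of -0.038. *skn-1*, whose SKN-1A isoform turns on proteasome genes when the proteasome is impaired, had the largest estimate. It had 136, 126 and 129 CPM in wild type and 163, 158 and 175 CPM in *vhl-1* libraries. All 3 mutant libraries were above the wild type libraries, as in 6.97% of all tested genes. The log2 fold change was 0.34 (SE 0.080), which missed the threshold after adjustment over all genes (adjusted p = 0.14 in edgeR and 0.11 in DESeq2). Gene counts do not separate its isoforms. The genes that process SKN-1A, *ddi-1* (a protease), *png-1* (a deglycosylase), *sel-1* and *sel-11* (of the ER degradation pathway), had log2 fold changes between -0.094 and -0.038. In *sel-1* and *sel-11* all 3 mutant libraries were below the wild type libraries, as in 7.48% of all tested genes. The log2 fold changes of the transcription factor genes *pqm-1*, *daf-16* and *hsf-1* were 0.11, -0.0085 and 0.034. *sel-9*, also on that list, encodes a protein of the secretory pathway and had -0.058.

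Of 13 genes for ubiquitin, its conjugation and the CDC-48 segregase, which pulls ubiquitin-marked proteins from complexes, 0 passed in either direction (median -0.015). The polyubiquitin gene *ubq-1* had a log2 fold change of -0.14, the E1 gene *uba-1* of -0.12, the E2 gene *let-70* of 0.022, and *cdc-48.1* and *cdc-48.2* of -0.042 and -0.13. *ubc-12*, the E2 gene for the ubiquitin-like protein NED-8, had 35.7, 35.1 and 35.5 CPM in wild type and 46.4, 44.5 and 42.0 CPM in *vhl-1* libraries. All 3 mutant libraries were above the wild type libraries, as in 6.97% of all tested genes. The log2 fold change of 0.32 (SE 0.080) missed the threshold (adjusted p = 0.17 in edgeR and 0.14 in DESeq2). In *cdc-48.2* and *uba-1* all 3 mutant libraries were below the wild type libraries, as in 7.48% of all tested genes. The 6 genes of the COP9 signalosome, a complex related to the lid that removes NED-8 from cullins, had log2 fold changes from -0.078 (*csn-2*) to 0.053 (*csn-6*), and 0 passed.

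The VHL-1 ligase list was the only one of these 5 lists with calls. Of its 7 genes, 1 passed in the lower direction, *vhl-1* itself, and 1 in the higher direction, *egl-9*, which encodes the oxygen sensor that marks HIF-1 for VHL-1. *egl-9* had 24.8, 30.9 and 32.2 CPM in wild type and 98.7, 117 and 135 CPM in *vhl-1* libraries, with a log2 fold change of 1.99 (SE 0.16, adjusted p = 0.0031 in edgeR). The other ligase genes did not pass: *cul-2* had a log2 fold change of -0.042, *elc-1* of 0.046, *elb-1* of 0.060 and *rbx-1* of 0.067. *hif-1*, also on that list, did not pass either, with a log2 fold change of -0.12 (SE 0.12).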

How the data were processed

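RNA was sequenced from whole young adults as single-end reads of 50 bp, 3 wild type and 3 *vhl-1* libraries. The authors trimmed the reads (Trim Galore 0.4.3.1), aligned them (STAR 2.6.0b), counted them per gene (featureCounts 1.6.3) and deposited raw counts, without normalization. Genome build, annotation, strand setting and handling of multi-mapped reads are not given in the sources used here. The labels call the replicates biological; nothing more is said of their origin.

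Symbols came from the WormBase name table and positions and exon lengths from Ensembl release 115 (WBcel235), which held 46603 of 46778 identifiers and all 33 members. Each file also had 1 blank row without reads.

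Genes were fitted in R 4.3.3 with edgeR 4.0.16 (filterByExpr, TMM, quasi-likelihood test on genotype, Benjamini-Hochberg over 16596 genes, threshold 0.05), where the study used DESeq2; DESeq2 1.42.0 was an alternative. The standard error is the log2 fold change divided by the root of its F statistic, and 95% intervals use the t distribution of the fit. CPM per kb divides TMM-scaled CPM by the union of exons. Particle sums and ratios are descriptions without a test. The other alternatives were library scaling, low-count filters, each library left out in turn and a replicate term. The fit was tested on simulated data with changes larger than those estimated for the members, so that test does not cover changes of their size. No libraries of a genotype agreed within sampling noise (chi-square per gene at least 45.8).

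Values per library were given for the members with the 3 highest and 3 lowest log2 fold changes, the 5 smallest p-values, the highest and lowest level per length, and *rpn-6.1*, *rpn-6.2*, *rpn-10*, *rpn-11*, *pbs-1*, *pbs-2* and *pbs-5*. In the other lists, genes with values were picked after they were seen. Members, lists and rules were chosen with earlier results of these data known.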

Additional observations from a re-analysis of the deposited data

How the results depend on the processing

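0 of the 33 proteasome genes passed the threshold in either direction under any alternative tried: DESeq2, its size factors in edgeR, library size alone, no low-count filter, at least 10 reads in every library, each library left out, and a replicate block in edgeR or DESeq2. Whether the replicate numbers pair the libraries was not shown, since the deviations from the genotype means correlated at 0.59 and 0.52 for the first and second pairs but at -0.026 for the third, whose libraries did not correlate best with each other. The number of all genes past the threshold, 207, became 654 with DESeq2, 354 in edgeR under a replicate block and 909 in DESeq2 under a replicate block, and leaving out single libraries gave 49 to 161. With library size alone the median of all tested genes rose from 0.0059 to 0.040, and estimates near 0 rose with it and changed sign: *pas-3* was 0.026, *pbs-4* 0.011 and *rpn-6.1* 0.0094, and leaving out single libraries put *pas-3* between -0.040 and 0.014, *pbs-4* between -0.082 and 0.0068 and *rpn-6.1* between -0.046 and 0.0052. The same omissions put the median log2 fold change between -0.097 and -0.028 for the core and between -0.11 and -0.041 for the regulatory particle. With library size alone these medians were -0.020 and -0.042, the summed regulatory level moved from 4178 to 4128 CPM in wild type and from 3963 to 4012 CPM in *vhl-1* animals, and the members whose genotypes did not overlap fell from 6 to 0. The cause of these differences was not tested.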

Other observations

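The paralogs *rpn-6.2* and *rpn-6.1* were also compared within each library, a comparison chosen after the values were seen and given as a description. The ratio of *rpn-6.2* to *rpn-6.1*, both in CPM per kb, was 0.214, 0.212 and 0.210 in the wild type libraries and 0.196, 0.197 and 0.197 in the *vhl-1* libraries. The genotypes did not overlap, and the difference of the means was -0.016 (SD 0.00170 in wild type and 0.000546 in *vhl-1*, n = 3 each). An exact test over the 20 arrangements of the libraries, counting differences in either direction, gave p = 0.1. With 3 libraries per genotype this test cannot give a smaller p, so it cannot decide whether the ratio differs. How often other pairs of members separate in this way was not tested. Scaling cancels in the ratio of the paralogs, and neither gene passed the edgeR test on its own. Whether shared reads of the paralogs take part was not tested.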
